A study of Mus musculus with 9 samples.

Results

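The genes described here are 42 enzymes of glycolysis, gluconeogenesis, fructose entry, pyruvate fate and the pentose phosphate pathway. They were chosen by symbol, as rows of the count table whose Ensembl ID carries a listed symbol in GENCODE M21, and all 42 were found among the table's 21253 gene IDs. No measured value entered that rule, but the list was drawn up with earlier results of these data known. Of the 42, 37 passed the filter on low counts and were tested. Hk3, Eno2, Ldhb, Pck1 and Fbp1 did not pass and are described by their counts. G6pc passed through its 7-day counts alone, so 36 of the 37 would also have passed on the controls.

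RNA was sequenced from 9 samples of mouse AKP tumour organoids, 3 in each of 3 groups. In all of them a short hairpin RNA against Apc is made only while doxycycline is present. AKP is the labels' name for the organoids, and they do not give the alleles carried beside the Apc hairpin or the number of animals or clones behind the culture. The controls stayed on doxycycline, so that Apc was off. It was withdrawn for 2 days in the second group and for 7 days in the third (day 2 and day 7, counted from its withdrawal), stages that the labels call early and late in differentiation. Doxycycline removal, Apc restoration and days in culture go together in these groups and cannot be told apart. The labels call the 3 samples of a group technical replicates, and a p-value therefore reflects their spread alone, which may be technical. Both restored groups were compared with the same 3 controls.

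Libraries held 24143589 to 32277040 counts. Levels are given as CPM, a gene's count relative to its library's total, after TMM scaling, a correction for differences in library composition, and each gene was tested in edgeR across all 12535 genes that passed the filter. A gene was called when its Benjamini-Hochberg adjusted p was under 0.05, and a log2 fold change is printed with its standard error (SE). Apc itself, on chromosome 18, was at 6.80, 6.83 and 8.84 CPM in control samples. After 2 days it stood at 31.8, 38.1 and 24.8 CPM and after 7 days at 67.9, 69.9 and 92.9 CPM. The groups did not overlap, and Apc was higher by 2.08 ± 0.17 and 3.36 ± 0.17 on the log2 scale at 2 and 7 days (edgeR adjusted p = 3.1e-07 and 6.2e-11). The 10 most abundant genes took 6.25% to 7.11% of a library in the controls and 12.0% to 13.8% at 7 days, and the TMM factors were 1.073 to 1.125 in the controls and 0.785 to 0.8735 at 7 days.

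As background, glycolysis breaks glucose down to pyruvate in the cytosol, yielding ATP, and pyruvate is then reduced to lactate or enters mitochondria through pyruvate dehydrogenase. Gluconeogenesis runs the path backward with its own enzymes at the irreversible steps, and the pentose phosphate pathway branches off to make NADPH and ribose phosphate. Many steps have several isozymes with tissue preferences. The small intestine is known for taking up dietary sugar, for phosphorylating fructose with ketohexokinase, and for some capacity to release glucose.

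Promoter windows are shown for 5 members whose RNA rose between the controls and 7 days and that stand for 5 steps: fructose entry (Khk), glucose release (G6pc), pyruvate kinase (Pklr), the brake on pyruvate dehydrogenase (Pdk2) and lactate dehydrogenase (Ldha). Each runs 5′ to 3′ on the gene's own strand from 250 bases before to 50 bases after a RefSeq start site in build GRCm38.p6. Capitals mark 3 motifs, which are CACGTG as the core of the E-box, then GTTAAT as an HNF1 half-site, and TATAAA as the TATA box.
Khk (chr5:30921309-30921608, plus strand): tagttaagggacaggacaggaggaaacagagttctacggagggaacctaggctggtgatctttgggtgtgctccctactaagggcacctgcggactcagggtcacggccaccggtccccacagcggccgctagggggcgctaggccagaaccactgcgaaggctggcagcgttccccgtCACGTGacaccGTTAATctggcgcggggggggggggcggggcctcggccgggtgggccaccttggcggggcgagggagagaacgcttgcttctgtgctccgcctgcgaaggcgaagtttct
G6pc (chr11:101367466-101367765, plus strand): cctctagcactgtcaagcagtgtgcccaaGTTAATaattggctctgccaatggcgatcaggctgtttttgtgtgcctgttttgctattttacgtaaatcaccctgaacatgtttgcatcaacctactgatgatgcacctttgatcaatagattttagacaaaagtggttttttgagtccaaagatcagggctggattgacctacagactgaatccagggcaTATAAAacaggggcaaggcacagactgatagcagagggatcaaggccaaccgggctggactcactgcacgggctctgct
Pklr (chr3:89136373-89136672, plus strand): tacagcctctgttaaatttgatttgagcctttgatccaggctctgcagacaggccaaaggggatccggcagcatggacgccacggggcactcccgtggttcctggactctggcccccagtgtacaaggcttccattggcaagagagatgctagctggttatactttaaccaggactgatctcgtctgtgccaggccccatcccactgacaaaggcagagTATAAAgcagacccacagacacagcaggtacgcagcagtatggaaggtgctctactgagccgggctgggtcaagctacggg
Pdk2 (chr11:95041322-95041621, minus strand): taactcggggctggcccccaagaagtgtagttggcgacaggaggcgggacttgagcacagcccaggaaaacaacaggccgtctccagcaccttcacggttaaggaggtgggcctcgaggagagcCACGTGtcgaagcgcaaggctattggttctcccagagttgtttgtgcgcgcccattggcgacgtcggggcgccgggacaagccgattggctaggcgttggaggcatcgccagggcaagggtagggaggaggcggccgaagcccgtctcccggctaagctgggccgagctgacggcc
Ldha (chr7:46845554-46845853, plus strand): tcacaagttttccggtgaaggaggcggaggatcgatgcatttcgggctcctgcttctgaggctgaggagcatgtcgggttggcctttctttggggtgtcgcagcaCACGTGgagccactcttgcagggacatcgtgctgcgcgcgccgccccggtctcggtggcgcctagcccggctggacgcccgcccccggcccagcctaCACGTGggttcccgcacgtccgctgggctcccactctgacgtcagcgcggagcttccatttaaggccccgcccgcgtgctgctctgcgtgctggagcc
In the Khk window CACGTG began 71 bases and GTTAAT 60 bases before the start site. The G6pc window held GTTAAT 221 bases and TATAAA 29 bases before it, and the Pklr window held TATAAA 31 bases before it. Pdk2 had CACGTG at 126 bases before its start and Ldha had it at 145 and at 48 bases before. RefSeq also lists another start site for each of Pklr, Pdk2 and Ldha, whose window held none of the motifs searched, so the windows printed are those with a match. RefSeq gave 64 such windows for the 42 genes. Searched on both strands, CACGTG stood in 9 of these windows (14.1%) and in 7.15% of all 32851 mouse windows of the same length. GTTAAT stood in 5 (7.81%, against 7.1% of all windows) and TATAAA in 4 (6.25%, against 13.6%). The shorter ACGTG, which is also part of CACGTG, stood in 25 windows (39.1%, against 19.6%). TTTATNG stood in 4 (6.25%, against 10.9%), and CAAAGTCCA in 0 (against 0.475%). CACGTG stood at Khk, Ldha, Pcx, Pdk2, Pfkfb2, Pfkfb3 and Pfkm, called higher at 7 days, and at Fbp2 and G6pc3, called lower. Most members were called higher with or without a motif: 70.3% of all those tested were, and 21.6% were called lower. GTTAAT stood at G6pc and Khk (called higher), Pfkfb1 (lower), Pdha1 (not called) and Pck1 (not tested). TATAAA stood at G6pc and Pklr (called higher), Pfkfb1 (lower) and Eno2 (not tested). These matches describe letters in a window and show no binding.

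At 2 days 5 of the 37 tested were called higher (Hk1, Aldoc, Pklr, Pdk2 and Rpia), 2 lower (Hk2 and G6pdx) and 30 were not called. Of the members 18.9% were called and of all genes tested 23.7%, 13.1% higher and 10.6% lower. The order of these shares changed with the processing: with the replicate number as a block they were 32.4% and 32.2%, and with only the 2 groups compared 27.8% and 26.4%. The median log2 fold change of the 37 was -0.01, and all but Pdk2 lay between -0.36 and 0.83. Groups did not overlap for 12 of the 37, against 39.3% of all genes.

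By 7 days 26 of the 37 were called higher, 8 lower and 3 not at all. Across all genes 82.3% were called at 7 days, 40.5% higher and 41.8% lower, so that a call by itself was common. The split differed: 70.3% of the tested members were called higher and 21.6% lower. With library size alone in place of TMM, 34.8% of the calls over all genes were higher rather than 49.2%, and the members gave 23 higher and 11 lower. Under TMM scaling 15 members were called at least 2-fold higher and 0 at least 2-fold lower, where 22.3% and 19.6% of all genes were. Library size alone gave called falls of more than 2-fold for Rpia (-1.12 on the log2 scale), Pfkfb1 (-1.12) and Hk2 (-1.06). It left Pfkp (0.75), Pfkfb2 (0.65) and Eno3 (0.85) below a 2-fold rise. Under TMM scaling the members' median log2 fold change was 0.88 against -0.03 for all genes tested. Without G6pc, whose test rests on 7-day counts alone, 25 were higher and 8 lower with a median of 0.87. For 30 of the 37 the groups did not overlap, as for 82.3% of all genes. The genes called lower were Hk2, Pfkfb1, Eno1, Pdk3, Fbp2, G6pc3, G6pdx and Rpia. Under TMM scaling the largest fall among them was -0.72 ± 0.07 for Rpia and -0.72 ± 0.13 for Pfkfb1 on the log2 scale.

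**Figure D1:**
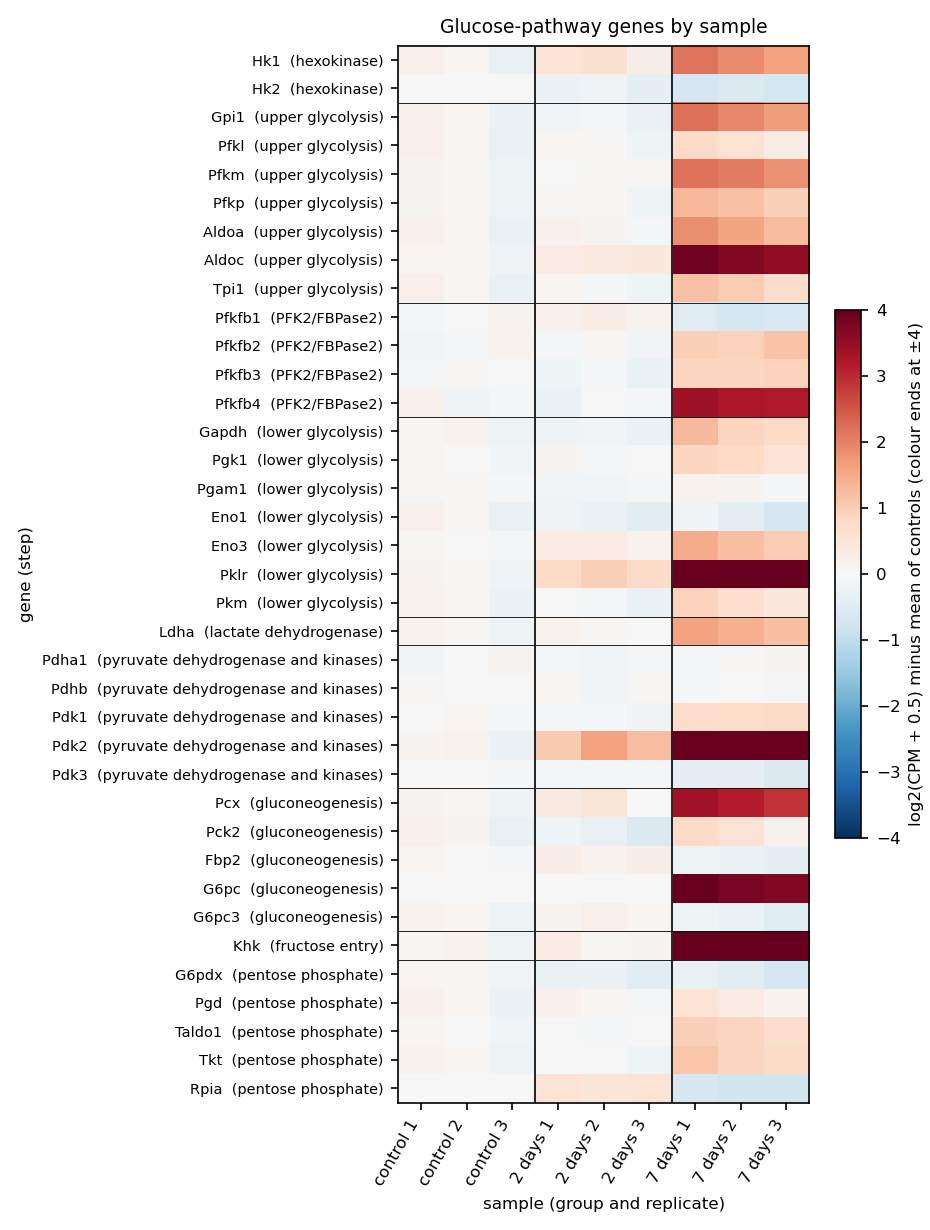
Level of each of the 37 tested members (rows, grouped by step) in each of the 9 samples (columns), as log2(CPM + 0.5) minus the mean of the 3 controls, with red above and blue below and colours ending at 4 in either direction. The 7-day columns are red for most rows and darkest for Aldoc, Pklr, Pdk2, G6pc and Khk. The 2-day columns are pale, least so for Pdk2 and Pklr.

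Hexokinases commit glucose to the cell by phosphorylating it, and the isozymes at that step moved in opposite directions. Hk1 (chr10:62268855-62379908), the widely expressed form, was at 132, 121 and 96.6 CPM in control samples, 170.5, 176 and 135 CPM on day 2 and 507, 429 and 351 CPM on day 7. Every 2-day sample lay above every control and every 7-day sample above both. Hk1 was higher by 0.46 ± 0.14 at 2 days (edgeR adjusted p = 0.028) and by 1.88 ± 0.14 at 7 days (edgeR adjusted p = 8.3e-09), a 3.68-fold difference. The 2-day call was lost without control replicate 2 or 3 or without 2-day replicate 1 or 2, with edgeR adjusted p values from 0.0606 to 0.116.

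Hk2 (chr6:82725025-82774454), the form typical of muscle, fat and many tumours, went the other way. Its controls held 86.6, 89.2 and 87.3 CPM, its 2-day samples 74.8, 79.3 and 68.1 CPM and its 7-day samples 54.9, 59.1 and 53.3 CPM, with no overlap between any groups. The fall was -0.24 ± 0.08 at 2 days (edgeR adjusted p = 0.032) and -0.65 ± 0.08 at 7 days (edgeR adjusted p = 1.4e-06). The 2-day call did not hold without 5 of the libraries in turn, with adjusted p from 0.0533 to 0.128. Hk3, a form of blood cells, had 0 counts in every library.

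For the steps from glucose 6-phosphate to triose phosphates all 7 members were called higher at 7 days, and 5 of them by at least 2-fold. Of all genes tested 40.5% were called higher and 22.3% at least 2-fold higher. With library size alone as the scaling Pfkl was not called and Pfkp rose by 0.75 on the log2 scale. Gpi1 (chr7:34201330-34230336) interconverts the hexose phosphates. It was at 551, 524 and 415 CPM in control samples and 457, 467 and 421 CPM on day 2, where the groups overlapped, and reached 2289, 1858 and 1576 CPM on day 7. This rise of 1.94 ± 0.13 on the log2 scale was 3.84-fold (edgeR adjusted p = 2.5e-09). Gpi1 shares 741 exon bases with a non-coding gene on the other strand that is not among the IDs counted.

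Phosphofructokinase makes the committed step of glycolysis, and its subunits rose to different degrees. Pfkm (chr15:98092589-98132451), the muscle type, was the least abundant, at 17.8, 17.0 and 14.7 CPM in control samples and 16.2, 16.8 and 17.0 CPM on day 2. At 7 days it reached 75.5, 68.9 and 59.8 CPM, 4.12-fold above the controls (2.04 ± 0.10 on the log2 scale, edgeR adjusted p = 4.9e-11). Pfkp, the platelet type, stood at 198, 192 and 163 CPM in control samples and 190.3, 194 and 163 CPM on day 2, then at 463, 414 and 354 CPM. It was 2.23-fold higher at 7 days (1.15 ± 0.11, edgeR adjusted p = 1.1e-07), and 748 of its exon bases overlap Pitrm1 on the other strand. Pfkl, the liver type, had 454, 414 and 329.9 CPM in control samples, 420.5, 405 and 353 CPM on day 2 and 676, 593 and 484 CPM on day 7. It rose least, by 0.55 ± 0.13 (edgeR adjusted p = 0.0011), and with library size alone as the scaling its difference was 0.14 with an adjusted p of 0.23.

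The Pfkfb genes encode enzymes that make and break down the sugar bisphosphate that activates phosphofructokinase. Pfkfb4 (chr9:108991778-109032228) stood at 6.72, 5.37 and 5.79 CPM in control samples, at 4.90, 6.06 and 5.59 CPM on day 2 and at 67.2, 60.3 and 58.5 CPM on day 7. Its 2-day and control samples overlapped, and the 7-day samples lay 10.4-fold above the controls (3.39 ± 0.11 on the log2 scale, edgeR adjusted p = 4.2e-13). Pfkfb2 was at 8.30, 8.72 and 9.91 CPM in control samples, 8.64, 9.17 and 8.29 CPM on day 2 and 17.7, 17.6 and 20.4 CPM on day 7. This rise was 1.05 ± 0.10 (edgeR adjusted p = 1.5e-07), and 0.65 with library size alone as the scaling. Pfkfb2 shares 1262 exon bases with Gm29427, a gene on the same strand that is not among the IDs counted. Yod1 overlaps 154 of its exon bases on the other strand and had 2082 counts in all 9 libraries, against 3049 for Pfkfb2. Pfkfb3, the inducible form with strong kinase activity, went from a mean of 36.4 ± 1.29 CPM (SD, n = 3) to 67.1 ± 1.58 CPM at 7 days (0.88 ± 0.08). Pfkfb1, the liver and muscle form, was the member of this family that fell: its mean was 4.32 ± 0.328 CPM in control samples, 4.98 ± 0.273 CPM at 2 days and 2.63 ± 0.198 CPM at 7 days (-0.72 ± 0.13, edgeR adjusted p = 0.00014). Apex2 overlaps 123 exon bases of Pfkfb1 on the other strand and had 3464 counts in all 9 libraries, against 1054 for Pfkfb1.

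Aldolase splits fructose bisphosphate into triose phosphates. Aldoc (chr11:78322968-78327781), best known from brain, held 19.2, 19.1 and 16.4 CPM in control samples and 22.8, 24.0 and 24.4 CPM on day 2, with every 2-day sample above every control (0.38 ± 0.10, edgeR adjusted p = 0.013). By 7 days Aldoc was at 279, 242 and 217 CPM, 13.5-fold above the controls (3.75 ± 0.11, edgeR adjusted p = 6.9e-14). Aldoa (chr7:126795234-126800751), the main form of most tissues, was at 1501, 1401 and 1094 CPM in control samples and 1503, 1419.9 and 1275 CPM on day 2, where the groups overlapped. It rose to 4799, 3934 and 3149.9 CPM on day 7 (1.57 ± 0.15, edgeR adjusted p = 9.8e-08). Per kilobase of exon Aldoa remained the more abundant, at a mean of 1361 CPM per kilobase against 75.4 for Aldoc at 7 days. Tpi1, which interconverts the trioses, went from a mean of 1096 ± 178 to 2134 ± 346 CPM (SD, n = 3), a rise of 0.96 ± 0.13 (edgeR adjusted p = 8e-06).

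In the lower part of glycolysis 5 of 7 tested members were called higher at 7 days, as were 40.5% of all genes tested. Eno1 was called lower and Pgam1 was not called. Gapdh, which oxidises the triose, and Pgk1, which makes the first ATP of the payoff phase, rose by 0.98 ± 0.12 and 0.74 ± 0.10 on the log2 scale (edgeR adjusted p = 2.8e-06 and 8e-06). Pgam1, the mutase that follows, had 945, 949 and 861 CPM in control samples and 1020.0, 980.4 and 885 CPM on day 7. Its groups overlapped, with a difference of 0.07 ± 0.08 (edgeR adjusted p = 0.47).

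Enolase makes phosphoenolpyruvate. Eno1 (chr4:150236721-150248879), the widespread form, was at 4663, 4325 and 3363 CPM in control samples, 3673, 3491 and 3041 CPM on day 2 and 3726, 3180.2 and 2547 CPM on day 7. The 7-day and control samples overlapped, and the fall of -0.39 ± 0.15 was called (edgeR adjusted p = 0.023) but lost its call without control replicate 1 or 2 or without 7-day replicate 2 or 3 (adjusted p from 0.056 to 0.102). Eno1 has a near-identical copy, Eno1b on chromosome 18, that drew almost as many counts, and reads of the pair cannot be assigned with certainty. Eno1b was at a mean of 3294 ± 529.7 CPM in control samples and 2514 ± 462 CPM at 7 days (SD, n = 3), a fall of -0.39 ± 0.14 (edgeR adjusted p = 0.021). The sum of both ran from 6065 to 8387 CPM in the controls and from 4586 to 6688 CPM at 7 days. These ranges overlapped, with a log2 difference of -0.39 and an exact permutation p of 0.2 (0.3 adjusted over 2 tests, two-sided).

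Eno3 (chr11:70657202-70662513), the muscle enolase, rose from 25.1, 24.3 and 23.0 CPM in control samples to 29.7, 29.6 and 26.9 CPM on day 2 and 67.9, 56.6 and 49.0 CPM on day 7. Its 2-day samples lay above all controls without being called (0.25 ± 0.11, edgeR adjusted p = 0.11), and the 7-day rise was 1.26 ± 0.11 (edgeR adjusted p = 2.8e-08). The neuronal form Eno2 had at most 6 counts in any library.

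Pyruvate kinase makes pyruvate and ATP. Pklr (chr3:89136142-89146784), the liver and red cell form, had 35.8, 34.5 and 30.4 CPM in control samples, 57.0, 65.5 and 56.7 CPM on day 2 and 710.2, 592 and 551 CPM on day 7. The groups stood apart at each time, by 0.83 ± 0.11 at 2 days (edgeR adjusted p = 3.4e-05) and by 4.20 ± 0.12 at 7 days (edgeR adjusted p = 6.1e-14), an 18.4-fold difference. Of its exon bases 711 overlap Hcn3 on the other strand, a gene with 1246 counts in all 9 libraries against 55810 for Pklr. Pkm (chr9:59656368-59679375) is the form of most other tissues and of tumours. It had the highest mean CPM of the members in each group, as far as reads of Eno1 can be told from Eno1b. The sum of those copies averaged 7411, 6115 and 5665 CPM in the controls, at 2 days and at 7 days, against 6643, 6093 and 10644 for Pkm. Pkm held 7347, 6953 and 5628 CPM in control samples, 6546, 6206 and 5528 CPM on day 2 and 12553, 10598 and 8779.9 CPM on day 7. Its 2-day samples overlapped the controls and its 7-day samples did not (0.68 ± 0.14, edgeR adjusted p = 0.00034). The table counts the gene as a whole, so that its M1 and M2 splice forms are not separated.

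**Figure D2:**
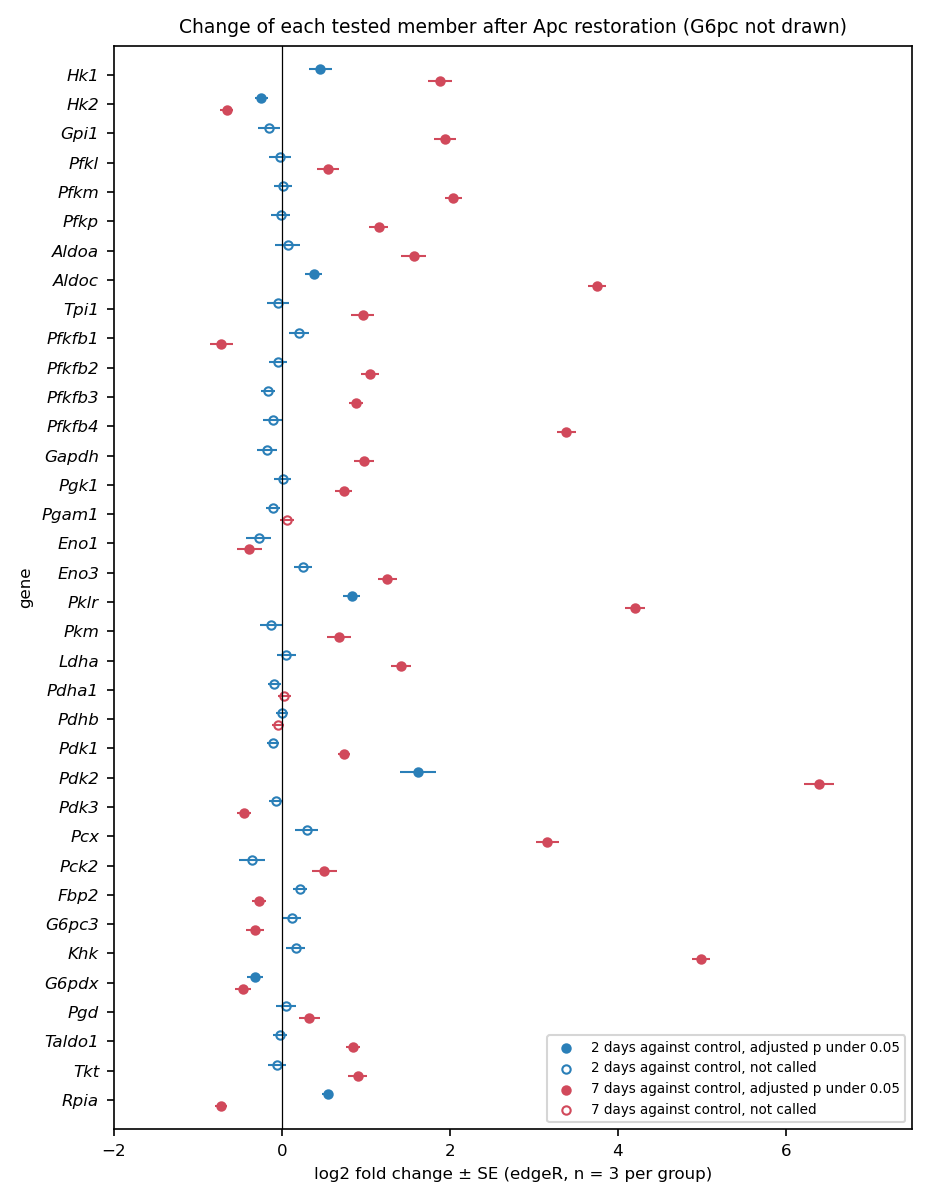
Log2 fold change (x axis, points, with SE bars, 3 samples per group) of 36 tested members (y axis) at 2 days in blue and 7 days in red against the controls, filled where the edgeR adjusted p was under 0.05. Red points spread from -0.72 (Rpia and Pfkfb1) to 6.39 (Pdk2) while all blue points but Pdk2 lie below 1; G6pc is left out because its controls had 0 counts, and the Pgd point turns negative with library size alone as the scaling.

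Lactate dehydrogenase turns pyruvate into lactate. Ldha (chr7:46841475-46855627) was at 2462, 2304 and 1999.6 CPM in control samples, 2488, 2308 and 2229 CPM on day 2 and 6835, 6021 and 5204 CPM on day 7. Nothing separated 2 days from the controls (0.05 ± 0.11, edgeR adjusted p = 0.78), whereas every 7-day sample was above every other sample (1.42 ± 0.12, edgeR adjusted p = 2e-08), 2.67-fold higher. Ldhb, the heart form, had 0 or 1 count in each of the 9 libraries.

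Pyruvate dehydrogenase admits pyruvate to the mitochondrial citrate cycle, and its kinases switch it off. The subunit genes Pdha1 and Pdhb were not called at either time. Pdha1 had means of 199 ± 16.2, 187 ± 3.60 and 204 ± 11.0 CPM and Pdhb had means of 139.6 ± 3.37, 140.3 ± 8.83 and 136 ± 3.22 CPM in the controls, at 2 days and at 7 days (SD, n = 3). With library size alone as the scaling, which lowers the median of all genes by 0.40 on the log2 scale at 7 days, Pdha1, Pdhb and Pgam1 were called lower.

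The kinases diverged. Pdk2 (chr11:95026258-95041354) was nearly silent in the controls, at 1.27, 1.32 and 0.923 CPM, and was at 2.94, 4.57 and 3.44 CPM on day 2. At 7 days it reached 115, 97.0 and 87.1 CPM. No groups overlapped: Pdk2 was 3.07-fold higher at 2 days (1.62 ± 0.21, edgeR adjusted p = 4.6e-05) and 84.2-fold higher at 7 days (6.39 ± 0.18, edgeR adjusted p = 6.1e-14), the largest fitted change among the members other than G6pc. Pdk1, the kinase known as a target of hypoxia signalling, rose from 67.1 ± 2.80 to 112 ± 3.05 CPM (0.74 ± 0.07, edgeR adjusted p = 1.1e-07). Pdk3 fell from 30.8 ± 0.782 to 22.6 ± 1.93 CPM (-0.45 ± 0.08, edgeR adjusted p = 0.00015).

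**Figure D3:**
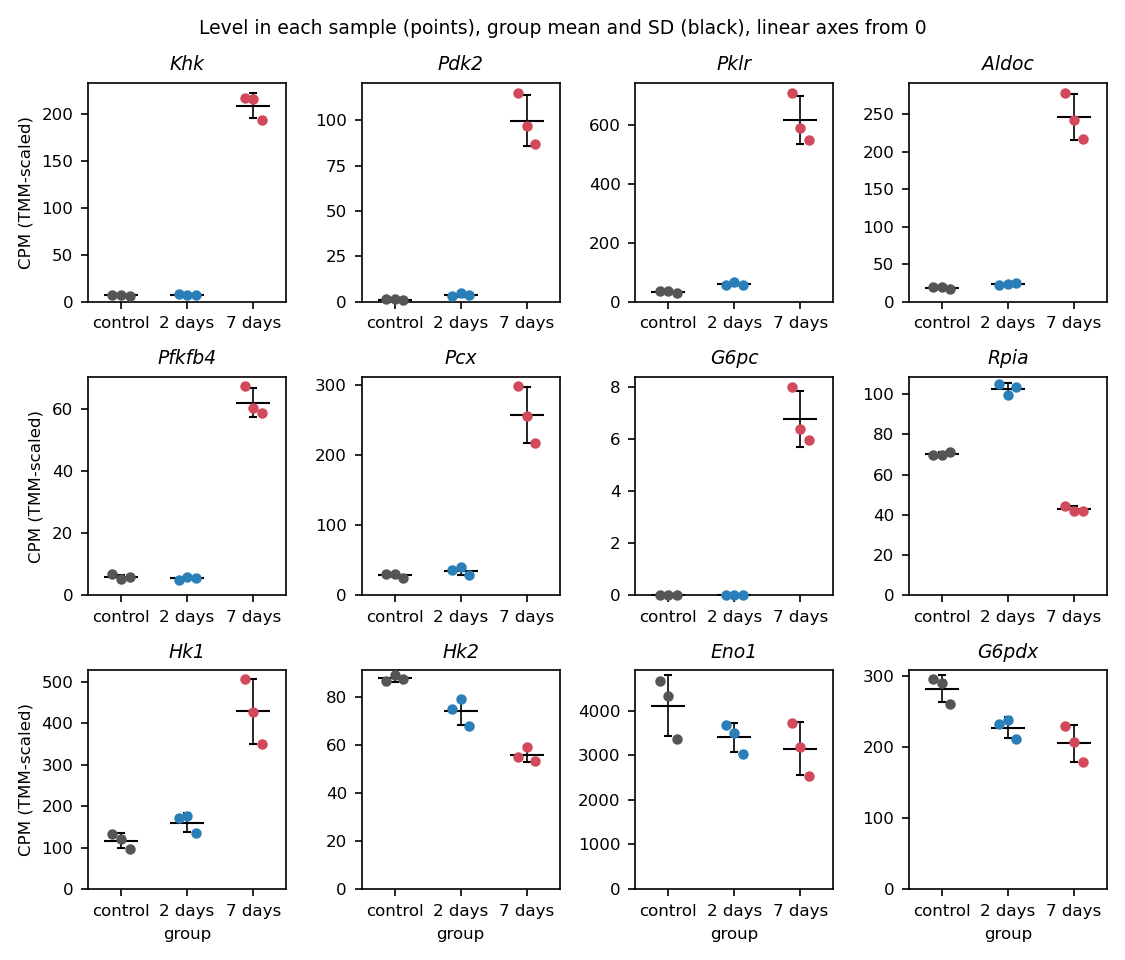
TMM-scaled CPM (y axis, linear from 0) in each sample (points) of the 3 groups (x axis) for 12 members, with the group mean and SD of 3 samples in black. Khk, Pdk2, Pklr, Aldoc, Pfkfb4 and Pcx are low at both earlier points and high at 7 days, G6pc is at 0 until 7 days, Rpia peaks at 2 days, Hk1 rises and Hk2 falls, and the Eno1 groups overlap.

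Gluconeogenesis starts with pyruvate carboxylase and phosphoenolpyruvate carboxykinase and ends with fructose bisphosphatase and glucose 6-phosphatase. Pcx (chr19:4510472-4621752), the carboxylase, which also refills the citrate cycle, was at 30.9, 30.2 and 25.2 CPM in control samples, 36.8, 40.2 and 28.9 CPM on day 2 and 298, 256 and 218 CPM on day 7. At 2 days the groups overlapped (0.30 ± 0.13, edgeR adjusted p = 0.13), and at 7 days Pcx was 8.95-fold higher (3.16 ± 0.14, edgeR adjusted p = 1.2e-11). G6pc (chr11:101367561-101377903), the glucose 6-phosphatase that releases free glucose in liver, kidney and gut, had 0 counts in all 6 control and 2-day libraries. At 7 days it had 185, 170 and 163 counts, or 8.01, 6.38 and 5.98 CPM. Set against the 3 counts over the control group that a count of 0 allows (0.0337 CPM), the 7-day mean of 6.79 CPM was at least 201-fold higher. Its widely expressed relative G6pc3 fell from 19.0 ± 2.40 to 15.3 ± 1.67 CPM with overlapping groups (-0.32 ± 0.11, edgeR adjusted p = 0.015), a call that was lost without control replicate 1 or 2 or 7-day replicate 3.

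The remaining gluconeogenic genes were near 0 or differed by less. Pck1, the cytosolic carboxykinase, had at most 1 count in a control, at most 2 at 2 days and 3 in each 7-day library. Pck2 (chr14:55540266-55551242), the mitochondrial form, had 46.6, 44.7 and 33.3 CPM in control samples, 36.8, 33.0 and 27.6 CPM on day 2 and 70.2, 61.1 and 46.0 CPM on day 7. Its 7-day samples overlapped the controls although the difference was called (0.51 ± 0.15, edgeR adjusted p = 0.0065), and with library size alone the difference was 0.10 with an adjusted p of 0.51. Fbp1, the liver and kidney bisphosphatase, had at most 3 counts in any library. Fbp2 (chr13:62836877-62858422), the muscle form, was the bisphosphatase with counts, at 166, 160.1 and 149 CPM in control samples, 189.7, 174 and 188 CPM on day 2 and 138, 135 and 120.2 CPM on day 7. Its 2-day samples lay above the controls without a call (edgeR adjusted p = 0.065) and its 7-day samples below them (-0.27 ± 0.08, edgeR adjusted p = 0.0059).

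Khk (chr5:30921431-30931248) encodes ketohexokinase, which brings fructose into metabolism past the control of phosphofructokinase. It was at 6.84, 7.17 and 5.68 CPM in control samples and 8.18, 6.78 and 7.15 CPM on day 2, where the groups overlapped. At 7 days it was at 217, 217 and 194 CPM, all far above the other samples. Khk was 31.8-fold higher than in the controls (4.99 ± 0.11, edgeR adjusted p = 4.6e-15) and 28.3-fold higher than at 2 days (4.82 ± 0.11, edgeR adjusted p = 9e-15).

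In the pentose phosphate pathway the oxidative and the non-oxidative arm both held genes that rose and genes that fell. G6pdx (chrX:74409483-74429194), the entry enzyme and a source of NADPH, was at 296, 291 and 260.1 CPM in control samples, 232, 239 and 211 CPM on day 2 and 229.6, 208 and 178 CPM on day 7. All restored samples lay below all controls, by -0.31 ± 0.10 at 2 days (edgeR adjusted p = 0.027) and -0.46 ± 0.10 at 7 days (edgeR adjusted p = 0.00041). The 2-day call was lost when control replicate 1 or 2, or 2-day replicate 1 or 3, was left out (adjusted p from 0.0674 to 0.11), and 418 exon bases of G6pdx overlap Ikbkg on the other strand. Pgd, the next NADPH-making enzyme, was called higher at 7 days with overlapping groups (0.33 ± 0.12, edgeR adjusted p = 0.021), but its sign turned with library size alone (-0.08) and its call was lost without control replicate 3 or 7-day replicate 1. Tkt and Taldo1, which pass carbon back to glycolysis, rose from 915 ± 109 to 1716 ± 223 CPM and from 229.8 ± 14.3 to 414 ± 35.8 CPM (0.91 ± 0.11 and 0.85 ± 0.08, edgeR adjusted p = 2.1e-06 and 1.7e-07).

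Rpia (chr6:70765720-70792232), which isomerises ribose phosphate for nucleotide synthesis, was the member called in opposite directions at the times. Controls held 69.9, 69.8 and 71.5 CPM, 2-day samples 105, 99.7 and 104 CPM and 7-day samples 44.4, 42.0 and 41.9 CPM. No groups overlapped. Rpia was 1.46-fold higher at 2 days (0.55 ± 0.07, edgeR adjusted p = 2.6e-05) and 1.65-fold lower at 7 days (-0.72 ± 0.07, edgeR adjusted p = 1.2e-07). Between 2 and 7 days it fell by 1.27 on the log2 scale (edgeR adjusted p = 2.3e-10), and it kept all 3 calls under each of the 20 alternatives run. Fbp2, Pfkfb1 and Pdk1 also had their 2-day and 7-day samples on opposite sides of all controls, without a call at 2 days, although Fbp2 gained that call under 7 of the alternatives. Samples apart from all controls were common, for 39.3% of all genes at 2 days and 82.3% at 7 days. How many of all genes lay on opposite sides at the times was not counted.

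Between 2 and 7 days, 26 of the 37 were called higher and 6 lower, where 79.1% of all genes were called, 39.2% higher and 39.9% lower. With library size alone the members split 24 to 11, so that 68.6% of their calls were higher rather than 81.2%. Under TMM scaling, rises of at least 2-fold numbered 18, where 19.3% of all genes rose so far. Rpia was the single fall of at least 2-fold under that scaling, where 16.2% of all genes fell so far. The median of the 37 was 0.96 against -0.03 for all genes. Without G6pc, whose test rests on 7-day counts alone, 25 were higher, 17 of them by at least 2-fold, and 6 lower, with a median of 0.92. The 5 that were not called were Pgam1, Eno1, Pdha1, Pdhb and G6pdx. G6pdx was called lower at both times against the controls, and its 7-day level differed from its 2-day level by -0.15 ± 0.10 (edgeR adjusted p = 0.17). After the calls at 2 days, Pdk2, Pklr, Aldoc and Hk1 rose further by 4.78 ± 0.15, 3.37 ± 0.11, 3.37 ± 0.10 and 1.42 ± 0.14, and Hk2 fell further (-0.41 ± 0.08, edgeR adjusted p = 0.00019).

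Since a ratio within a sample does not depend on library scaling, isozymes of a step were also compared as shares of their pair, from counts per exon length. Hk1 made up 51.6%, 48.7% and 43.6% of Hk1 plus Hk2 in the controls, 61.4%, 60.8% and 58.0% at 2 days and 86.6%, 83.5% and 82.2% at 7 days. The share of Pklr in Pklr plus Pkm went from 0.779% ± 0.0423 (SD, n = 3) through 1.50% ± 0.149 to 8.28% ± 0.494. Aldoc went from 1.22% ± 0.0976 through 1.50% ± 0.173 to 5.31% ± 0.445 of Aldoc plus Aldoa, and Eno3 from 1.81% ± 0.232 through 2.55% ± 0.112 to 5.39% ± 0.203 of Eno3 plus Eno1. In each of these 4 pairs the groups did not overlap at either time. Pkm, Aldoa and Eno1 remained the larger share of their pairs at 7 days. The Eno3 share leaves out the counts given to Eno1b, the copy of Eno1, and would be lower with them.

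Pfkp made up 18.8% ± 0.93 of Pfkp plus Pfkl in the controls, 18.8% ± 0.461 at 2 days and 26.0% ± 0.648 at 7 days. The log2 ratio differed between 7 days and the controls by 2.53 for Hk1 over Hk2, 3.52 for Pklr over Pkm, 2.19 for Aldoc over Aldoa, 1.64 for Eno3 over Eno1 and 0.60 for Pfkp over Pfkl. At 2 days the first 4 differed by 0.71, 0.95, 0.30 and 0.52. Each of these differences had an exact two-sided permutation p of 0.1 (0.107 adjusted over 15 tests), the smallest that 3 against 3 samples can give, and the Pfkp difference at 2 days had an exact permutation p of 1. A ratio shows unequal change and not which isozyme changed. The pairs Ldhb with Ldha, Pck1 with Pck2 and G6pc with G6pc3 gave no ratio, since a member of each had under 10 counts in a library.

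**Figure D4:**
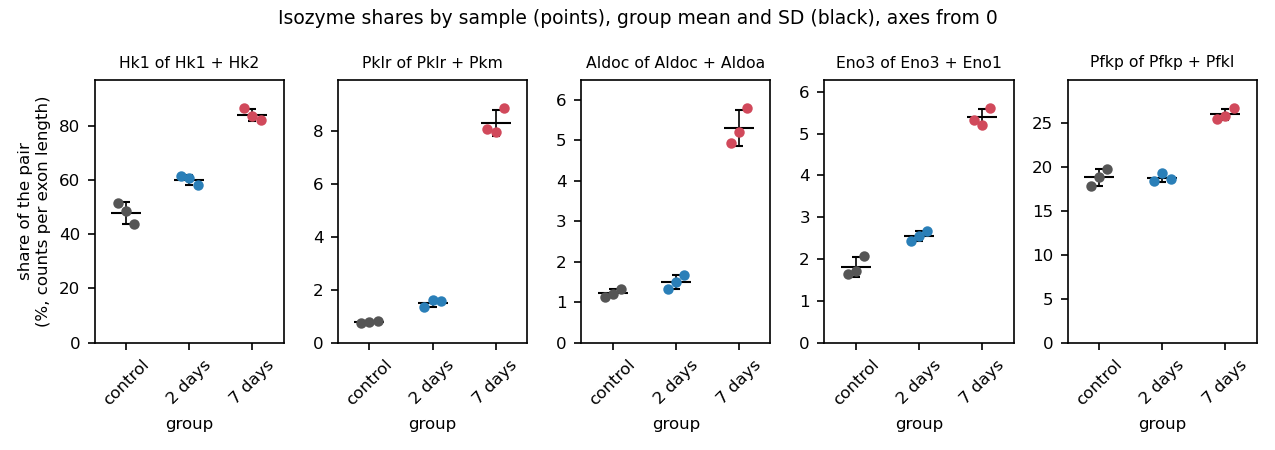
Share of a pair's counts per exon length (y axis, percent, linear from 0) held by the named isozyme in each sample (points) of the 3 groups (x axis), with the group mean and SD of 3 samples in black. Hk1 goes from 48.0% to 84.1% of its pair, Pklr, Aldoc and Eno3 rise from under 2% to between 5.31% and 8.28%, and Pfkp stays at 18.8% at 2 days and is at 26.0% at 7 days. Counts given to Eno1b are left out of the Eno3 pair.

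Set in order by mean CPM per kilobase of exon, the controls were led by Pkm (1328), Eno1 (765), Ldha (681) and Pgk1 (680.0). At 7 days the order was Pkm (2128), Ldha (1819), Aldoa (1361) and Pgk1 (1133), with Eno1 at 586. The place of Eno1 depends on how reads were split with Eno1b: their sum, at the exon length of Eno1, came to 1378 in the controls, above Pkm, and to 1053 at 7 days. In the controls Ldha and Pgk1 did not differ beyond their spread. Exon length here is the union of all annotated exons of a gene, so the order depends in part on the annotation. The counts of genes with pseudogenes, Gapdh and Ldha among them, are uncertain, and so are their places. Together the 42 genes took 2.17% to 2.65% of the counts of a control library, 2.19% to 2.46% at 2 days and 2.87% to 3.53% at 7 days. In bulk RNA a higher level in each cell and a larger share of cells that express a gene cannot be told apart.

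Within each group the members also shared a pattern between replicates. Replicate 3 was the lowest of its group for 28 of the 37 in the controls, 23 at 2 days and 31 at 7 days, where 41.6%, 38.7% and 46% of all genes had their lowest value. The members' median log2 difference of replicate 3 from the others was -0.22, -0.10 and -0.27. Replicate 1 was the highest for 26, 17 and 31 members, where 37.4%, 25.8% and 41.3% of all genes had their highest value. At 2 days replicate 2 was the highest for nearly as many members, 16. The part of this pattern in the results was not tested. Without replicate 3 of every group, a run added after the data were seen, 7 members were called higher and 3 lower at 2 days and 26 and 8 at 7 days. In that run 27% and 91.9% of the members were called at 2 and 7 days, against 27.6% and 82.5% of all genes.

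Of 59 other genes of sugar transport and metabolism, listed with the members, 49 were tested. At 2 days 12 were called higher and 5 lower, and at 7 days 32 higher and 9 lower, with 23 at least 2-fold higher and 2 at least 2-fold lower. As shares, 34.7% and 83.7% were called at 2 and 7 days, against 23.7% and 82.3% of all genes, and 22.3% of all genes were at least 2-fold higher at 7 days. Slc2a2, Slc2a5, Slc5a1 and Pgam2 passed the filter only through the restored groups, and without them 28 were higher at 7 days, 19 by at least 2-fold, and 9 lower. Tkfc, the kinase of glyceraldehyde and dihydroxyacetone, went from 18.7 ± 1.41 through 28.9 ± 2.90 to 724 ± 137 CPM (5.27 ± 0.15). Sord, which makes fructose from sorbitol, was lower at 2 days (-0.36 ± 0.09, edgeR adjusted p = 0.0062) and higher at 7 days (3.22 ± 0.09, edgeR adjusted p = 4.9e-14).

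Other glycolytic and pentose genes also rose. Hkdc1, a hexokinase relative next to Hk1 on chromosome 10, went from 1.65 ± 0.474 through 6.28 ± 0.467 to 179 ± 18.6 CPM (1.92 ± 0.17 and 6.75 ± 0.15, edgeR adjusted p = 6.9e-07 and 6.5e-15). Ldhd, which handles D-lactate, rose by 0.77 ± 0.12 and 4.77 ± 0.11, and Galm, the mutarotase of galactose, by 0.71 ± 0.09 and 3.93 ± 0.09 at 2 and 7 days. Higher at 7 days by at least 2 on the log2 scale were also Shpk (3.74 ± 0.14), Pgam2 (2.21 ± 0.25) and Pgm1 (2.08 ± 0.11), none of them called at 2 days. Smaller 2-day rises were called for H6pd (0.38 ± 0.10), Pgm2 (0.41 ± 0.07) and Pdp1 (0.46 ± 0.15), and 2-day falls for Slc16a1 (-0.23 ± 0.07) and Dlat (-0.20 ± 0.07). The calls of Slc16a1, Dlat and Pdp1 were each lost under most of the alternatives that left out 1 library.

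Sugar transporters of enterocytes were near 0 until 7 days. The means of Slc2a2 were 0.153 ± 0.0956, 0.237 ± 0.0665 and 58.9 ± 0.393 CPM and those of the sodium-glucose transporter Slc5a1 were 0.298 ± 0.0906, 0.247 ± 0.0637 and 75.8 ± 7.94 CPM in the controls, at 2 days and at 7 days (SD, n = 3). The fructose transporter Slc2a5 went from 0.0887 ± 0.0461 to 10.2 ± 1.37 CPM. Their 7-day changes were 8.61 ± 0.19, 7.94 ± 0.17 and 6.75 ± 0.26, and with so few counts in the controls these SEs may be too small. None of the 3 was called at 2 days.

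Regulators of sugar genes were mixed. Hnf4a, a transcription factor of gut and liver, was at 252, 247 and 227 CPM in control samples, 477, 544 and 448 CPM on day 2 and 1598, 1409 and 1342 CPM on day 7 (1.02 ± 0.10 and 2.58 ± 0.10, edgeR adjusted p = 1.7e-06 and 3.7e-12). Mlxipl, the sugar-sensing factor ChREBP, rose by 0.68 ± 0.13 and 3.01 ± 0.12, and Txnip, a textbook target of the sugar-sensing factors, by 0.98 ± 0.09 and 2.92 ± 0.10. Foxo1 was higher at 2 days by 0.35 ± 0.08. Mlxip fell by 0.39 at 2 days, and Ppargc1a, a coactivator of gluconeogenic genes, was called lower at 2 days and not at 7 days: -1.41 ± 0.17 at 2 days (edgeR adjusted p = 1.7e-05) and 0.04 ± 0.15 at 7 days (edgeR adjusted p = 0.82).

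**Figure D5:**
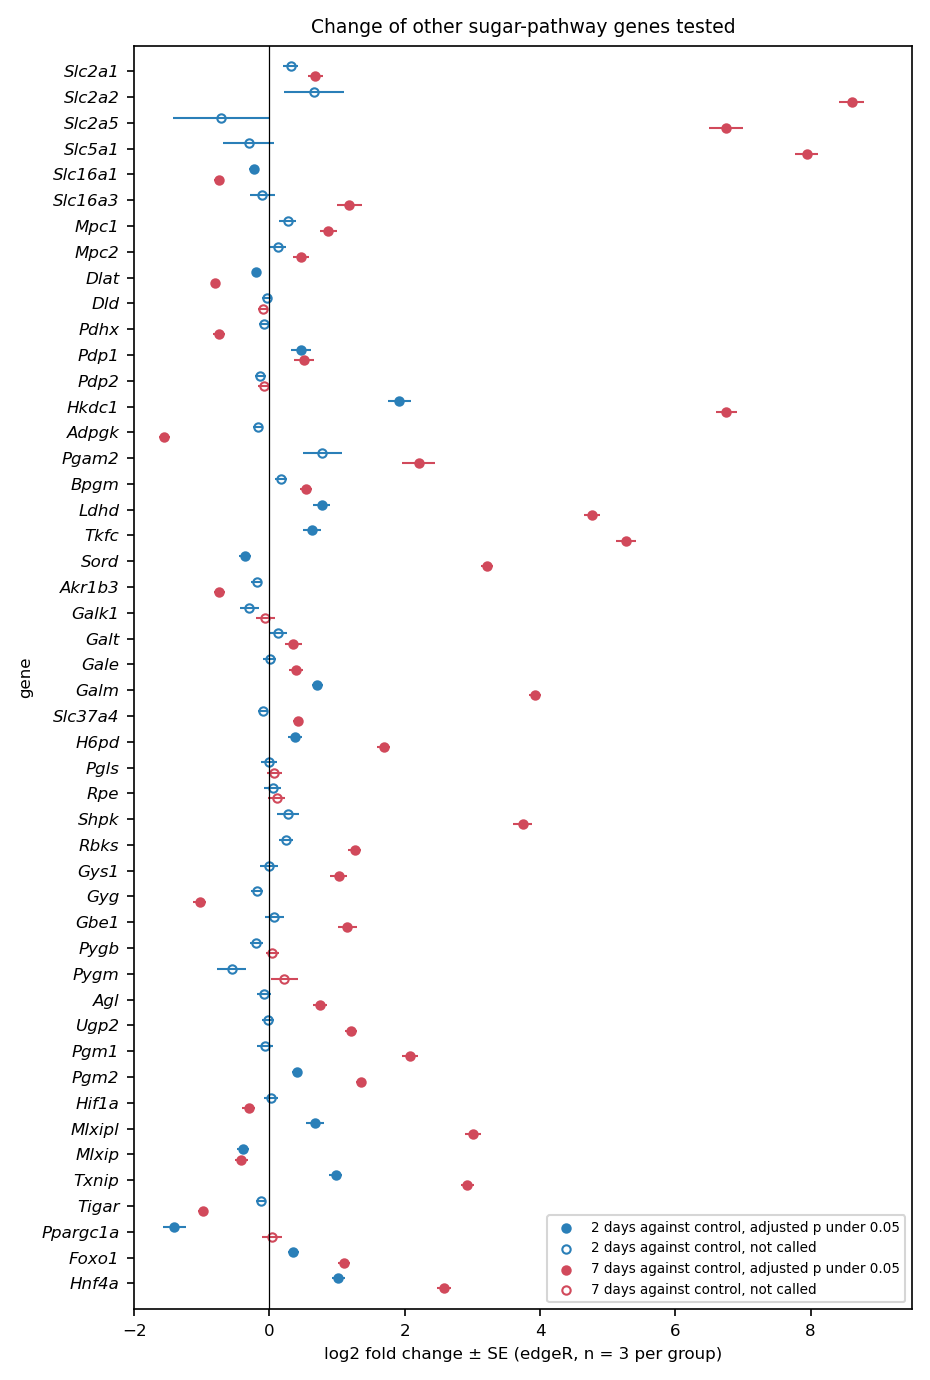
Log2 fold change (x axis, points, with SE bars, 3 samples per group) of 48 of the 49 other sugar-pathway genes tested (y axis) at 2 days in blue and 7 days in red against the controls, filled where the edgeR adjusted p was under 0.05. Of the genes drawn, Slc2a2 (8.61) and Slc5a1 (7.94) lie farthest right at 7 days, Adpgk (-1.55) farthest left, and Hkdc1 farthest right at 2 days.

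Marker genes moved with these results. The summed level of 10 enterocyte markers was 13.6 to 18.0 CPM in control samples, 51.0 to 53.8 CPM at 2 days and 15160 to 16110 CPM at 7 days, and all 10 were called higher at 7 days. Crypt-base stem cell markers (6 of 7 tested, all called lower at both times) summed to 421 to 454 CPM in control samples, 75.8 to 82.9 CPM at 2 days and 42.1 to 48.4 CPM at 7 days. Proliferation markers went from 2766 to 2891 CPM in control samples to 838 to 875 CPM at 7 days, with 8 of 8 called lower. Epithelial markers summed to 9383 to 12400 CPM in control samples, 13890 to 15950 CPM at 2 days and 26070 to 35610 CPM at 7 days, with 6 of 7 called higher at 7 days. Fibroblast and endothelial markers summed to at most 1.16 and 2.27 CPM in any library, with Lum and Emcn at 0 throughout. Of the 2 fibroblast markers tested, Col1a2 was called lower (-2.205 ± 0.437) and Pdgfrb higher (5.035 ± 0.655) at 7 days, neither above 0.734 CPM in any library. Leukocyte markers summed to 1.17 to 1.43 CPM in control samples and 3.81 to 5.80 CPM at 7 days, with Adgre1 at 0 in both. Both leukocyte markers tested were called higher at 7 days: Cd68 went from a mean of 1.11 to 3.36 CPM (1.59 ± 0.22) and Csf1r from 0.0247 to 0.956 CPM (5.15 ± 0.52). What part the change in cell types has in the changes of the sugar genes was not tested.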

How the data were processed

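A single table deposited by the authors held raw read counts for each gene in each of the 9 samples. The kit was NEBNext Ultra II RNA, after poly(A) selection, per the labels' protocols; it does not mark strand, so reads from overlapping or antisense genes cannot be told apart. Per the submitters' processing notes the tools were STAR 2.7.0e, featureCounts and DESeq2, and the builds named were mm10 and GRCm38. How reads with several matches were treated, the strand setting and the annotation release were not given in the sources used here. Gapdh, Ldha, Pgam1, Eno1 and other glycolytic genes have pseudogenes or copies, and their counts are uncertain to that extent.

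Samples were grouped by their titles. Symbols and coordinates came from GENCODE M21 (GRCm38), which held 21236 of the 21253 IDs, and promoter windows from RefSeq (GRCm38.p6). Counts were filtered with filterByExpr (minimum count 10), scaled by TMM and tested, two-sided, with edgeR 4.0.16 (glmQLFit, glmQLFTest) under R 4.3.3 in 1 fit of all 9 samples. The SE is the absolute log2 fold change over the square root of F. Where all libraries of a group had 0 counts, a floor of 3 counts summed over its libraries was used, which covers counting error only. The code was tested on simulated data. Replicate pairs differed by more than sampling noise (chi-square per degree of freedom 4.24 to 38.3).

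The members, gene lists and tests were chosen with earlier results of these data known. Values in every sample are given for members called at 2 days, called at 7 days with a log2 fold change of at least 1, or in an isozyme pair. Of the other pathway genes, those called at 2 days or called at 7 days with a log2 fold change of at least 2 are named, except 1 that is counted but not reported here. Alternatives were other scalings and filters, limma-voom (limma 3.58.1), the DESeq2 1.42.0 Wald test, a replicate block, only the groups compared and leaving out samples.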

Additional observations from a re-analysis of the deposited data

Results flagged for a closer look

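Rpia was called higher at 2 days and lower at 7 days against the same controls, and its difference between 7 and 2 days was itself tested: -1.27 ± 0.07 on the log2 scale (edgeR adjusted p = 2.3e-10), with the 3 samples of each group on one side.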

How the results depend on the processing

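Of the members' calls, 4 of 7 at 2 days, 29 of 34 at 7 days and 30 of 32 between the times held under each of the 20 alternatives that gave a value. The exceptions were G6pdx, Hk1 and Hk2 at 2 days, Eno1, G6pc3, Pck2, Pfkl and Pgd at 7 days, and Pfkl and Pgd between the times. Library size alone turned Pgd to -0.0758 at 7 days and -0.14 between the times, and it called 11 members lower between the times in place of 6, 14 other pathway genes lower at 7 days in place of 9 and 13 between the times in place of 8. That scaling lowers the median of all genes by 0.40 and 0.42. At 2 days, other pathway genes called lower were 3, not 5, under either upper-quartile factors or library size.

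Leaving out 1 library at a time gave 0 to 3 members and 3 to 5 other pathway genes called lower at 2 days, and 809 to 1517 genes overall in place of 1333, the lowest without control replicate 2. Without replicate 3 of every group, an alternative added after seeing the data, these counts were 3, 7 and 1601. The Pfkp over Pfkl log2 ratio at 2 days, 0.00012, ran from -0.044 to 0.0439. The values below 0 were -0.044 without control replicate 1 and -0.024 without 2-day replicate 2. With no filter, Pck1 was also called higher at 7 days, on 0 or 1 count in a control library and 3 in each 7-day library.

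Same-numbered samples of different groups did not all deviate together (correlations from -0.253 to 0.692), so the numbers were not taken as pairs. The correlations were positive for replicate 1 (0.17 to 0.564) and replicate 3 (0.163 to 0.692), and ran from -0.253 to 0.0553 for replicate 2. With the replicate number as a block, 8 members were called higher and 4 lower at 2 days, and 8 other pathway genes lower, while calls over all genes rose from 23.7% to 32.2%. The members added were Eno3, Fbp2, Pcx, Eno1 and Pck2. At 7 days the block gave the same 34 calls.

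Hk3, Eno2, Ldhb and Fbp1 had too few counts for a change to be detectable at this depth, and the Pck1 call rests on the counts given above.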
